A study of Mus musculus with 9 samples.

Results

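Protein kinase C isoforms are serine/threonine kinases that act downstream of receptors coupled to phospholipase C. The members described are Prkca, Prkcb, Prkcd, Prkce and Prkch, taken as every probe set that the platform annotation assigns to one of these 5 symbols, a rule on names and not on measured values. These are 5 of the 18193 genes named on the array and 14 of its 45037 probe sets, namely 3 for Prkca, 3 for Prkcb, 2 for Prkcd, 4 for Prkce and 2 for Prkch. Whole tissue RNA of 3 mice at postnatal day 6 was measured on 9 Affymetrix arrays, 1 for each animal's dorsal, intermediate and ventral spinal cord (n = 3 per region, paired by animal). Every animal was of the GAD65-GFP genotype, which labels GABA-making cells green through a GAD65 transgene, so no other genotype, age or treatment was there to compare with. Since no step of cell sorting is described, the values stand for all cells of a piece.

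Phospholipase C splits a membrane lipid into inositol trisphosphate, which releases calcium from stores, and diacylglycerol, which stays in the membrane and recruits kinases with a C1 domain. The conventional isoforms, PKC alpha (Prkca) and PKC beta (Prkcb), need both calcium and diacylglycerol, whereas the isoforms PKC delta (Prkcd), PKC epsilon (Prkce) and PKC eta (Prkch) respond to diacylglycerol without calcium. In the spinal cord, kinases of this family are known for modulating transmission in the dorsal horn, where sensory fibres end.

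Transcripts of Prkca, Prkcb and Prkce were higher in dorsal than in ventral pieces, and their probe sets gave different levels for the intermediate pieces between them. Prkcb stood 5.92-fold higher in dorsal than in ventral pieces by 1 probe set, with the intermediate level between them, and 2.63-fold higher by its brightest, in which most of the difference lay between intermediate and ventral. Prkca stood 2.69-fold higher by its brightest probe set, with the intermediate level between them, whereas a dimmer one showed no such excess (-0.07 on the log2 scale, 95% interval -0.24 to 0.11). Prkce was 2.38-fold to 2.98-fold higher in intermediate than in ventral pieces by its 3 measured probe sets, and the 95% intervals of its dorsal minus intermediate difference lay between -0.17 and 0.32 on the log2 scale. Prkcd was 1.59-fold higher in dorsal than in ventral pieces, at the edge of the test, and Prkch had no difference that passed. In bulk tissue, fewer cells of a type and less RNA per cell cannot be told apart.

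Values were read as log2 expression, and those within 0.01 of the lowest value of the table, 2.15, are said to be at the floor. Of the 14 probe sets, 2 were at the floor on all 9 arrays (1427562_a_at of Prkca and 1437860_at of Prkce) and were removed by the filter on dim probe sets, which left 12. A further 2 were above the floor on a single array: 1443144_at of Prkcb reached 2.17 on the dorsal array of animal 3, and 1442256_at of Prkcd reached 2.74 on the dorsal array of animal 1. For Prkch, 1422079_at held the same value, 2.31, on all 9 arrays, so it had no measured spread. Differences were tested in a linear model with region and animal (limma) and called at an adjusted p under 0.05 over 31526 probe sets. Probe sets of a gene share its transcripts and are not replicates.

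In dorsal against ventral pieces, 7 of the 14 probe sets, 12 of which were tested, were called higher and 0 lower. The 7 belonged to 4 genes. Beside them, 21.5% of all probe sets tested were called higher and 21.4% lower. In intermediate against ventral pieces, 6 were called higher and 0 lower, beside 17.9% of all probe sets called higher and 18.8% lower. In dorsal against intermediate pieces, 3 were called higher and 0 lower, beside 11.9% called higher and 10.7% lower, or 3747 and 3366 probe sets, a split that became 3062 and 5189 once arrays were centred on their medians. The members' counts did not move with that centring, but the count of 3 was 1 without animal 1 or animal 3. Brighter probe sets were called more often. Of the 18072 with a mean of at least 6, 69% were called in either direction between dorsal and ventral pieces (6257 higher). The shares were 61.9% between intermediate and ventral pieces (5613 higher) and 43.1% between dorsal and intermediate pieces (4019 higher). Of the 6 member probe sets in that set, 6, 5 and 3 were called, all of them higher.

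**Figure D1:**
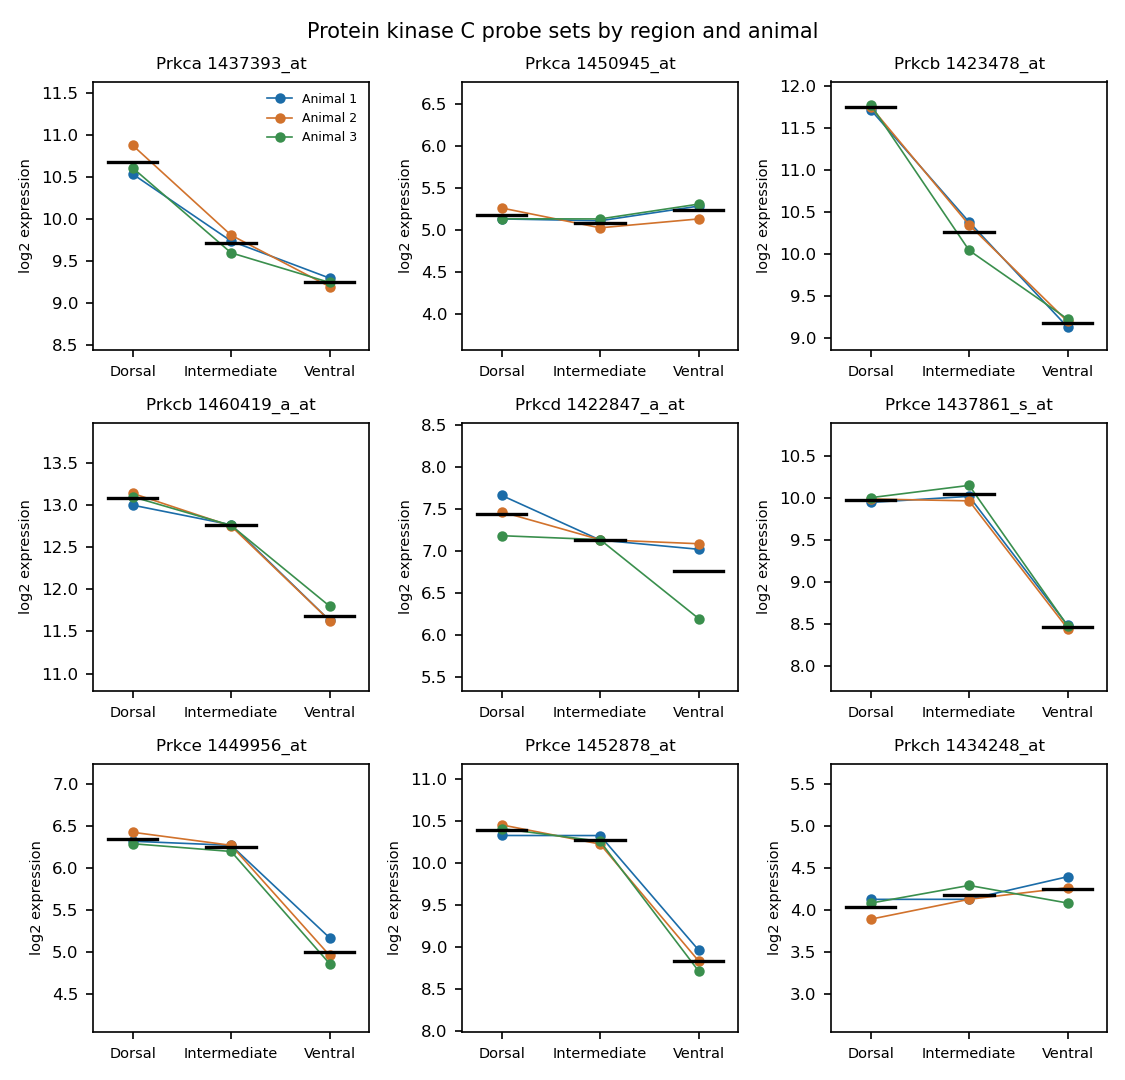
Log2 expression (vertical axes, each 3.2 units high) of the 9 probe sets that varied and were above the floor on every array, by region; points joined by a line are the 3 pieces of 1 animal, and black bars are region means. Prkca 1437393_at and both probe sets of Prkcb go down at each step, the 3 of Prkce go down mainly between intermediate and ventral, and Prkca 1450945_at and Prkch stay within 1 unit.

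Prkca encodes PKC alpha, a conventional isoform found in many tissues. By its brightest probe set, 1437393_at, it stood at 10.54, 10.88 and 10.61 in the dorsal pieces of animals 1, 2 and 3. It stood at 9.74, 9.81 and 9.60 in the intermediate pieces and at 9.30, 9.20 and 9.25 in the ventral pieces. No region overlapped another, and all 3 animals had the same order. Dorsal exceeded intermediate pieces by 0.96 ± 0.09 (SE, adjusted p = 0.00409), or 1.95-fold, with 0.80, 1.07 and 1.01 in the 3 animals. Intermediate exceeded ventral pieces by 0.47 ± 0.09 (adjusted p = 0.0174), or 1.38-fold. Between dorsal and ventral the difference was 1.43 ± 0.09 (adjusted p = 0.000467), and 3.31% of all probe sets tested had a larger one.

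The 2 smaller steps of Prkca lost their calls in some of the alternatives. Without animal 1 or animal 3 the dorsal excess over intermediate kept its size at 1.04 and 0.93 but was no longer called (adjusted p = 0.0531 and 0.0917; range over 22 alternatives 0.000247 to 0.0917). The intermediate excess over ventral was not called without any 1 of the animals 1, 2 and 3 (adjusted p = 0.0922, 0.0582 and 0.127) or any 1 intermediate array (0.0808, 0.0702 and 0.0502), within a range of 0.00254 to 0.127. The difference between dorsal and ventral was called in all 22.

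A second, dimmer Prkca probe set, 1450945_at, did not follow this pattern. It read 5.13, 5.26 and 5.13 in dorsal, 5.11, 5.02 and 5.13 in intermediate, and 5.28, 5.13 and 5.30 in ventral pieces, and the regions overlapped. Dorsal minus ventral was -0.07 (95% interval -0.24 to 0.11, adjusted p = 0.504), which for this probe set excludes the size seen with the brighter one. Without animal 2 it was -0.16, or -0.15 without its dorsal array alone, and passed the test (adjusted p = 0.0124 and 0.014; range over 19 alternatives 0.0124 to 1), and intermediate minus ventral, -0.15 with all arrays (95% interval -0.33 to 0.03, adjusted p = 0.164), passed in the same settings and with only these 2 regions (adjusted p = 0.0151, 0.00979 and 0.0355; range 0.00979 to 0.466). Dorsal minus intermediate was 0.09 (95% interval -0.09 to 0.26, adjusted p = 0.458). The 2 probe sets of the same gene thus gave different answers on its dorsoventral distribution.

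The start region of Prkca is shown because its brightest probe set and that of Prkcb were called in the same direction at both steps. That of Prkcd moved the same way but was called at neither step. The window, from RefSeq on GRCm38.p6, covers 250 bases before to 50 after the annotated start, at chr11:108343839-108344138 on the minus strand, printed 5′ to 3′ with motif matches in capitals.

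Prkca: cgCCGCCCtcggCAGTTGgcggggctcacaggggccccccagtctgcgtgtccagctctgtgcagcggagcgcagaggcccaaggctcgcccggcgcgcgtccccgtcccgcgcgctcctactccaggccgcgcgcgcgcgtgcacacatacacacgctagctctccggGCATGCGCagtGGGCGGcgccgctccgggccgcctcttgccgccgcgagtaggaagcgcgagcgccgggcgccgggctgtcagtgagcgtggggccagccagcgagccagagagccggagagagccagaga

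Both strands were searched for a set of short motifs that was chosen with the sequences in view, and a match is a description, not a site. The Prkca window is 75.3% G or C, against a median of 52.7% over the 32851 windows of the table, and holds 42 CG pairs, against a median of 7. It has 2 matches to the GC box (GGGCGG, present in 35.7% of all windows). There is 1 match to the E-box (CANNTG, in 72.3%), the short site of basic helix-loop-helix factors. There is also 1 match to the NRF1 core (GCATGCGC, in 2.71%). Neither a TATA box (TATAAA, in 13.6%) nor an octamer (ATGCAAAT, in 1.74%) is in this window.

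Prkcb encodes PKC beta, a conventional isoform that is made in neurons and also in cells of the blood lineage, microglia among them. Probe set 1423478_at read 11.72, 11.75 and 11.78 in dorsal pieces, 10.38, 10.35 and 10.04 in intermediate pieces and 9.13, 9.20 and 9.23 in ventral pieces. The regions lay more than 1 log2 unit apart on average, and no array of 1 region reached another. Dorsal exceeded ventral pieces by 2.56 ± 0.10 (adjusted p = 0.000135), with 2.59, 2.56 and 2.55 in the 3 animals, and 0.837% of all probe sets tested had a larger difference. The excess was 1.49 ± 0.10 over intermediate pieces (2.81-fold, adjusted p = 0.00155), and intermediate exceeded ventral pieces by 1.07 ± 0.10 (2.1-fold, adjusted p = 0.00158). All 3 calls held in each of 21 alternatives.

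The brightest Prkcb probe set, 1460419_a_at, whose suffix marks probes shared by several transcripts of a gene, read 13.00, 13.14 and 13.10 in dorsal, 12.77, 12.75 and 12.76 in intermediate, and 11.63, 11.63 and 11.80 in ventral pieces. Its intermediate excess over ventral, 1.07 ± 0.05 (2.11-fold, adjusted p = 0.000446), had the size given by the other probe set. Its dorsal excess over intermediate was only 0.32 ± 0.05 (1.25-fold, adjusted p = 0.0159). That call was lost without any 1 animal (adjusted p = 0.111, 0.107 and 0.109 without animals 1, 2 and 3), without dorsal array 3 (0.0576), without intermediate array 2 or 3 (0.0675 for both) and with only the arrays of the 2 regions (0.0677), within a range of 0.00532 to 0.111. Dorsal exceeded ventral pieces by 1.40 ± 0.05 (2.63-fold, adjusted p = 0.000133), a call kept in 22 alternatives.

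The probe sets of Prkcb therefore split over the dorsal to intermediate step and not over the next one. The first minus the second gave 1.10, 1.02 and 1.39 in animals 1, 2 and 3 for dorsal minus intermediate, a mean of 1.17 ± 0.20 (SD, n = 3). For intermediate minus ventral the same subtraction gave 0.11, 0.02 and -0.14. An exact sign-flip permutation test gave a two-sided p = 0.25 for the dorsal to intermediate step, which is the smallest this test can give with 3 animals, so it cannot pass 0.05 here whatever the size of the difference.

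The start region of Prkcb, from the same table, lies at chr7:122288875-122289174 on the plus strand.

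Prkcb: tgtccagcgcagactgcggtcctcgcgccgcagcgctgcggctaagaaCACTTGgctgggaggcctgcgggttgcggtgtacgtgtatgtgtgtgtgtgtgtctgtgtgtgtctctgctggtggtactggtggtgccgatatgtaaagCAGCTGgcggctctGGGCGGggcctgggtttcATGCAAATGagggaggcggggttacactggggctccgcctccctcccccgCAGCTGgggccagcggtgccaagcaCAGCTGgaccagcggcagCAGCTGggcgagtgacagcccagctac

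The Prkcb window is 65.3% G or C with 19 CG pairs. It holds 6 E-boxes, 1 of them overlapping the octamer, 1 GC box and 1 octamer. The only motifs found in the windows of both genes were the GC box and the E-box. Prkcd had 2 windows in the table, with 4 GC boxes, 2 E-boxes and 1 TATA box in the first and 3 E-boxes in the second. Prkce and Prkch were not matched there.

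Prkce encodes PKC epsilon, a calcium-independent isoform known from rodent work for its role in nociceptor sensitisation. Its brightest probe set, 1452878_at, read 10.32, 10.45 and 10.40 in dorsal pieces, 10.32, 10.22 and 10.25 in intermediate pieces and 8.96, 8.83 and 8.71 in ventral pieces. Dorsal and intermediate values were close together, touching at 10.32, and every ventral array was more than 1 below both. Intermediate exceeded ventral pieces by 1.43 ± 0.07 (2.70-fold, adjusted p = 0.000467), and dorsal exceeded ventral by 1.56 ± 0.07 (2.95-fold, adjusted p = 0.000198). Dorsal minus intermediate was 0.13 (95% interval -0.06 to 0.32, adjusted p = 0.31).

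Probe set 1437861_s_at, whose suffix marks probes that can match transcripts of more than 1 gene, read 9.947, 9.987 and 10.003 in dorsal, 10.02, 9.97 and 10.15 in intermediate, and 8.48, 8.45 and 8.48 in ventral pieces. It gave the largest step of the 3, 1.58 ± 0.04 between intermediate and ventral (2.98-fold, adjusted p = 0.000205), and -0.07 between dorsal and intermediate (95% interval -0.17 to 0.04, adjusted p = 0.344). The dimmer probe set 1449956_at read 6.32, 6.43 and 6.29 in dorsal, 6.27, 6.27 and 6.20 in intermediate, and 5.17, 4.96 and 4.86 in ventral pieces. Its differences were 1.25 ± 0.07 (2.38-fold, adjusted p = 0.000546) between intermediate and ventral and 0.10 (95% interval -0.08 to 0.28, adjusted p = 0.421) between dorsal and intermediate. The calls against ventral of all 3 probe sets held in each of the 19 to 22 alternatives that kept them.

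**Figure D2:**
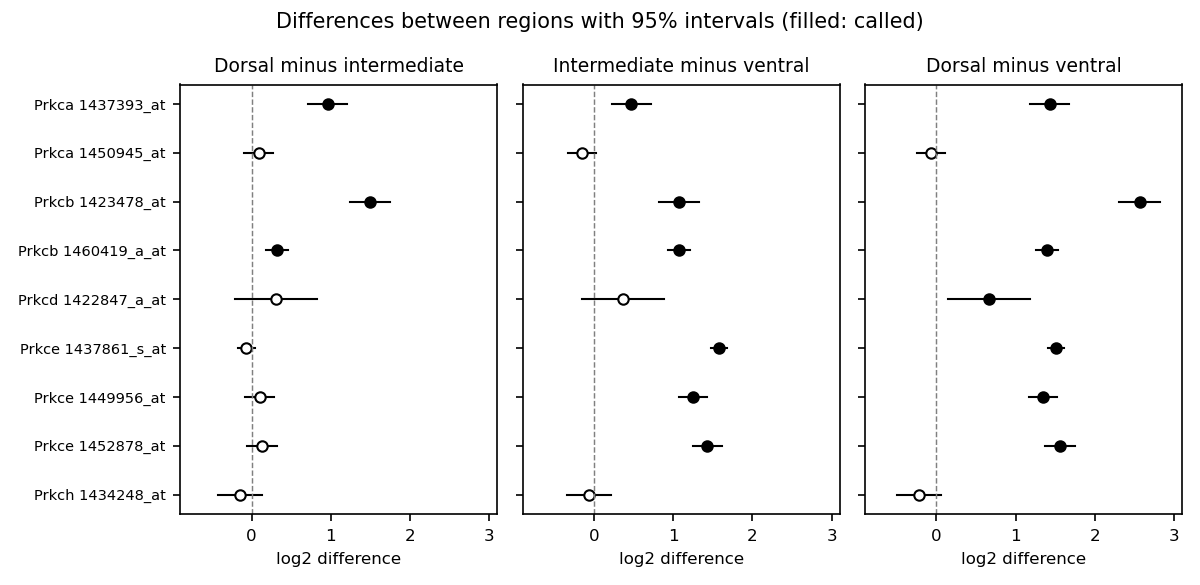
Log2 differences between regions (horizontal axes) for the 9 probe sets that varied and were above the floor on every array, with 95% intervals of the model; filled points are called at an adjusted p under 0.05. Prkce is near 0 in the left panel and between 1.25 and 1.58 in the middle one, whereas Prkca 1437393_at and both Prkcb probe sets are above 0 in all 3.

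How far the intermediate level departed from the midpoint of dorsal and ventral was tested in the same model, a contrast added after the values were seen. All 3 probe sets of Prkce lay above the midpoint, 1437861_s_at by 0.82 ± 0.03 (adjusted p = 0.0011), 1452878_at by 0.65 ± 0.06 (adjusted p = 0.00415) and 1449956_at by 0.57 ± 0.06 (adjusted p = 0.00493). Prkcb 1460419_a_at lay above it by 0.38 ± 0.05 (adjusted p = 0.00682). These were the 4 probe sets called, beside 12.9% of all probe sets called above the midpoint (4057 above and 4175 below, against 5316 and 3544 with centred arrays). Prkcb 1423478_at (-0.21, 95% interval -0.43 to 0.01, adjusted p = 0.152) and Prkca 1437393_at (-0.25, 95% interval -0.46 to -0.03, adjusted p = 0.0969) did not pass.

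Only the call of Prkce 1437861_s_at on the midpoint held in all of its alternatives (adjusted p at most 0.0389). Those of Prkce 1452878_at and 1449956_at were lost without animal 2 or animal 3 (adjusted p up to 0.0727 and 0.0924), and that of Prkcb 1460419_a_at without any 1 animal (up to 0.102). Without animal 3 the count of 4 was 1, and without animal 2 it was 2, of which 1 was a call below the midpoint, for Prkca 1450945_at. Prkca 1437393_at passed in 3 of 21 alternatives (range 0.0297 to 0.444).

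Prkcd encodes PKC delta, a calcium-independent isoform that is also present in microglia and other myeloid cells. Probe set 1422847_a_at read 7.66, 7.47 and 7.18 in dorsal, 7.13, 7.14 and 7.14 in intermediate, and 7.02, 7.09 and 6.20 in ventral pieces. No dorsal value reached down to an intermediate or ventral one, and the ventral array of animal 3 lay well below all the others. Dorsal exceeded ventral pieces by 0.67 ± 0.20 (1.59-fold, adjusted p = 0.0498), with 0.64, 0.38 and 0.99 in the 3 animals. The call did not hold in 15 of 21 alternatives (adjusted p from 0.0102 to 0.221): the difference was 0.45 (adjusted p = 0.0796) without the ventral array of animal 3, and the adjusted p was 0.0685 without the animal block. Dorsal minus intermediate (0.30, 95% interval -0.21 to 0.82, adjusted p = 0.381) and intermediate minus ventral (0.37, 95% interval -0.15 to 0.88, adjusted p = 0.237) did not pass.

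Prkch encodes PKC eta, a calcium-independent isoform best known from epithelia. Its varying probe set, 1434248_at, read 4.12, 3.89 and 4.08 in dorsal, 4.12, 4.12 and 4.29 in intermediate, and 4.39, 4.26 and 4.08 in ventral pieces. The dorsal and ventral values overlapped. Dorsal minus ventral was -0.22 (95% interval -0.49 to 0.06, adjusted p = 0.18). That interval lay below those of the called probe sets of Prkca, Prkcb and Prkce. It covers the signal of 1 dim probe set and cannot exclude a dorsal excess of the transcript. Without the ventral array of animal 3 the difference was -0.34 and passed (adjusted p = 0.0298, range over 20 alternatives 0.0298 to 0.602).

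Between dorsal and ventral, values did not overlap for 7 of the 14 probe sets (12 of them tested), which were those called. Of all probe sets tested, 25.7% did not overlap with dorsal above ventral. By size of the dorsal excess over ventral, Prkcb 1423478_at came first at 2.56. Prkce 1452878_at (1.56), Prkce 1437861_s_at (1.51), Prkca 1437393_at (1.43), Prkcb 1460419_a_at (1.40) and Prkce 1449956_at (1.35) followed. The 95% intervals of each neighbouring pair among those 5 overlapped, whereas that of the first, 2.31 to 2.82, overlapped none of them. Prkcd at 0.67 (0.15 to 1.18) overlapped Prkca 1437393_at (1.18 to 1.67) and Prkce 1449956_at (1.17 to 1.53) at the ends of their intervals. Levels of different probe sets are not set against each other, since their brightness depends on the probes.

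Genes whose profiles over the 9 arrays came closest to those of Prkca, Prkcb and Prkce were ranked by the root mean square difference after each probe set was centred on its own mean, among 12832 genes. This describes likeness over 9 arrays that fall into 3 regions, and was not computed for Prkcd and Prkch, whose region means lay less than 1 apart. Closest to Prkca were Mtss1 (0.07), an adaptor of membrane and actin, Slit1 (0.09), a secreted guidance protein, and Pknox1 (0.09), a homeobox factor. Closest to the brightest Prkcb probe set were Neto1 (0.05), an auxiliary subunit of glutamate receptors, Cnrip1 (0.06), which binds the cannabinoid receptor, and the potassium channel gene Kcnq3 (0.06). Closest to Prkce were the ephrin gene Efna5 (0.05), the sodium channel gene Scn2a (0.06) and Ablim3 (0.06), an actin-binding LIM protein. Scn2a, for example, averaged 13.05 in dorsal, 13.04 in intermediate and 11.55 in ventral pieces, the same step as Prkce.

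**Figure D3:**
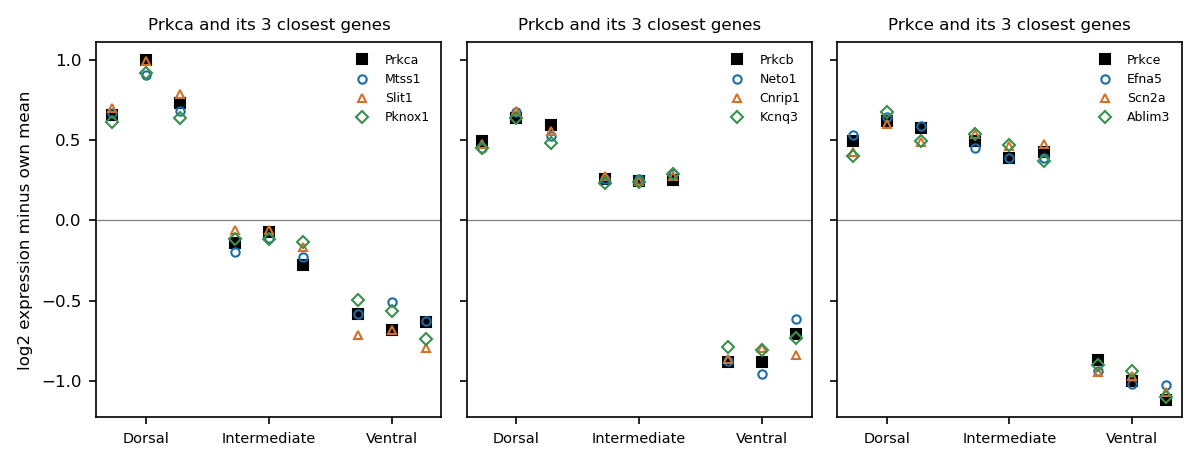
Log2 expression minus each probe set's own mean over 9 arrays (vertical axis) for Prkca, Prkcb and Prkce (black squares, brightest probe sets) and the 3 genes closest to each; within a region the points are animals 1, 2 and 3 from left to right. The intermediate arrays of Prkce and its neighbours lie beside the dorsal ones, those of Prkca and its neighbours below 0.

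Genes around the kinases were taken from lists of the pathway, each gene by its brightest probe set. Among all 13959 genes so tested, 23.7% were called higher and 27.3% lower in dorsal than in ventral pieces. The shares were 12.9% and 14.6% in dorsal against intermediate pieces, and 22.3% and 23.6% in intermediate against ventral pieces. Of 7 further family members and related kinases tested, 3 were higher in dorsal than in ventral pieces and 3 lower (median difference -0.11, against 0 over all probe sets). The 3 higher were protein kinase C isoforms, and the 3 lower were related kinases, a split seen after the values were known. The atypical isoform genes Prkcz (0.44 ± 0.07, adjusted p = 0.00668) and Prkci (0.39 ± 0.05, adjusted p = 0.00393) and the theta isoform gene Prkcq (0.40 ± 0.05, adjusted p = 0.00396) were higher. The protein kinase D genes Prkd3 (-1.18 ± 0.10, adjusted p = 0.00106) and Prkd1 (-0.60 ± 0.12, adjusted p = 0.0164), whose products are phosphorylated by protein kinase C, were lower, as was Pkn2 (-0.29 ± 0.08, adjusted p = 0.0341). The calls of Prkcz and Prkci were lost without animal 2 or 3 (adjusted p up to 0.0854 and 0.0802). That of Prkd1 was lost in 7 of 22 alternatives, without animal 2 or 3, dorsal array 2 or 3 or any 1 ventral array (up to 0.164). That of Pkn2 was lost in 9 of 21, among them without animal 1 or 2, any 1 dorsal array, intermediate array 2 or ventral array 1 or 2, and with no filter on dim probe sets (up to 0.217). Prkcq, at 9.12 in dorsal and 8.72 in ventral pieces, was lowest in intermediate pieces, 1.06 ± 0.05 below dorsal (adjusted p = 0.000997) and 0.65 below ventral (-0.65 ± 0.05, adjusted p = 0.00127), an order that no called member probe set showed.

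Upstream, 8 of 16 genes of Gq proteins, phospholipases C and inositol trisphosphate receptors were higher and 5 lower in dorsal than in ventral pieces. Plcb1 (1.91 ± 0.06, adjusted p = 9.18e-05), the phospholipase C beta of many neurons, and Plch2 (1.66 ± 0.12, adjusted p = 0.000599), of the eta class, were higher. Plcd4 (-1.63 ± 0.22, adjusted p = 0.00435; 0.0763 without animal 2, the highest of 21 alternatives) and the receptor gene Itpr2 (-1.41 ± 0.09, adjusted p = 0.000456), which opens stores in glia and other cells, were lower. Against intermediate pieces, dorsal pieces had 4 of these genes higher and 1 lower, and intermediate against ventral pieces 5 higher and 4 lower.

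Diacylglycerol kinases remove diacylglycerol by phosphorylating it. Of 7 tested, 2 were higher and 2 lower in dorsal than in ventral pieces, near the shares over all genes (23.7% and 27.3%). Dgkh was higher by 1.78 ± 0.03 (3.43-fold, adjusted p = 4.76e-05) and Dgkd by 0.65 ± 0.10 (adjusted p = 0.00629). Dgkk was lower (-0.90 ± 0.08, adjusted p = 0.00116), as was Dgkz by a small amount (-0.16 ± 0.04, adjusted p = 0.0318). Dgkd lost its call without animal 1 or 3 and with only the 2 regions (adjusted p up to 0.0769), and Dgkz in 11 of 22 alternatives, among them without any 1 animal or any 1 ventral array (up to 0.222).

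Other receptors of diacylglycerol with a C1 domain included the gene with the largest dorsal excess of all these lists. Of 8 tested, 5 were higher and 3 lower in dorsal than in ventral pieces. Rasgrp1, a diacylglycerol-activated exchange factor of Ras, was higher by 4.62 ± 0.14 (24.6-fold, adjusted p = 9.11e-05). The synaptic vesicle priming genes Unc13c (1.88 ± 0.05, adjusted p = 8.01e-05) and Unc13b (1.64 ± 0.10, adjusted p = 0.000425) were higher too, and the Rac regulator gene Chn2 was lower (-1.27 ± 0.05, adjusted p = 0.000149). These 4 calls held in all of their alternatives.

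Of 12 genes of protein kinase C substrates, 7 were higher and 2 lower in dorsal than in ventral pieces. Gap43, a growth cone protein, was higher by 1.19 ± 0.07 (adjusted p = 0.00034). Nrgn, neurogranin, was at the floor on all ventral arrays and near it in dorsal pieces (mean 2.79), with a 1.56-fold difference (adjusted p = 0.0263). That call was lost in 9 of 19 alternatives (adjusted p up to 0.211). Among them were those without animal 1 or 2, dorsal array 1 or 2, intermediate array 1 or any 1 ventral array. Plek, a substrate of blood cells and microglia, was higher by 0.62 ± 0.12 (adjusted p = 0.0122; up to 0.108 without any 1 animal, and lost also without ventral array 1 or 3). Ppp1r14a, an inhibitor of myosin phosphatase that protein kinase C activates, was lower (-3.15 ± 0.12, adjusted p = 0.000138).

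Among 8 genes of anchors and regulators, 4 were higher and 3 lower in dorsal than in ventral pieces. The phosphatases that remove the stabilising phosphate of protein kinase C went opposite ways, Phlpp2 higher (0.80 ± 0.07, adjusted p = 0.000864) and Phlpp1 lower (-0.88 ± 0.02, adjusted p = 5.48e-05). The caveolar genes Cavin2 (-1.32 ± 0.08, adjusted p = 0.000363), whose product binds PKC alpha, and Cavin3 (-0.69 ± 0.10, adjusted p = 0.00536; 0.0725 without animal 3, the highest of 21 alternatives), whose product binds PKC delta, were lower.

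**Figure D4:**
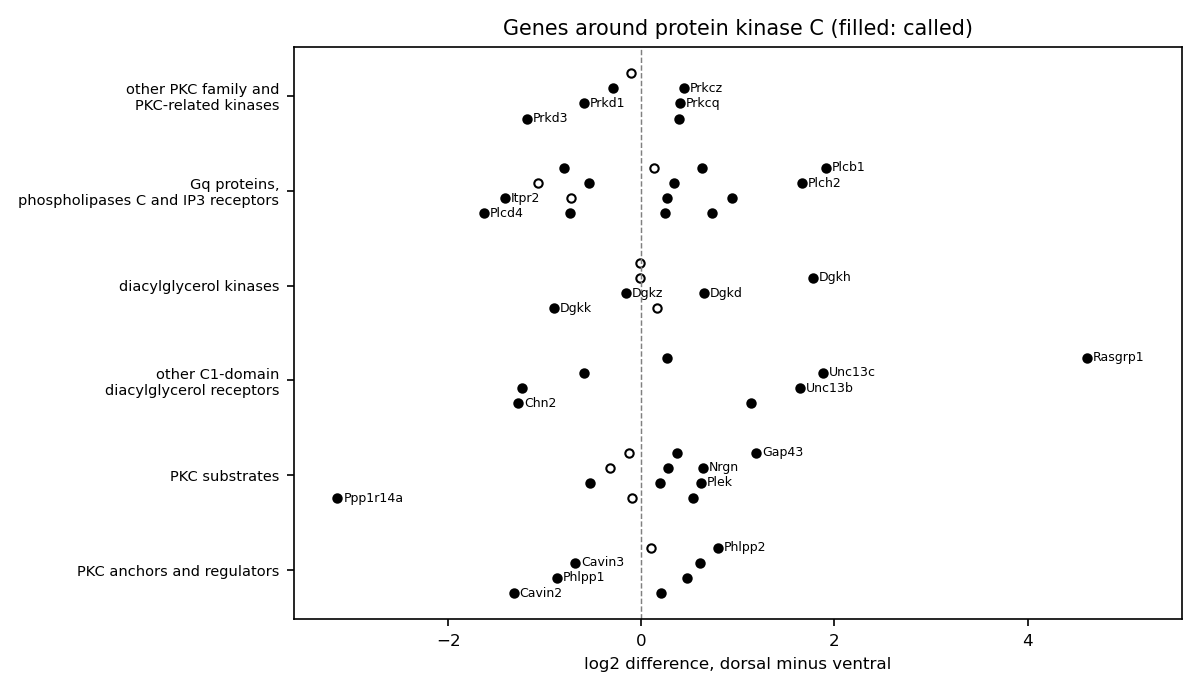
Log2 difference, dorsal minus ventral (horizontal axis), of each tested gene of the 6 pathway lists, by its brightest probe set; filled points are called and the up to 4 called genes of each list with the largest difference are named. Each list has called genes on both sides of 0, with Rasgrp1 at 4.62 and Ppp1r14a at -3.15 as the extremes.

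Cell type markers moved along the same axis. Their summed level is given as log2 of the sum of linear values. Of 10 dorsal horn neuron markers tested, 10 were higher in dorsal than in ventral pieces. They summed to 13.93 to 14.18 in dorsal, 12.03 to 12.36 in intermediate and 9.93 to 10.03 in ventral pieces. The means of the brightest probe sets of Prkca, Prkcb, Prkcd and Prkce had the same order. Of these, Prkcd was called at neither step, and Prkce only between intermediate and ventral pieces. The brightest probe set of Prkch had the opposite order without a call (means 4.03, 4.18 and 4.24). The motor neuron sum ran the other way, at 8.12 to 8.29 in dorsal, 9.27 to 9.59 in intermediate and 11.47 to 11.90 in ventral pieces. It was set largely by Chodl, the brightest of them (means 8.06, 9.05 and 11.32). Isl1 was alike in intermediate and ventral pieces (6.94 and 6.92), and Prph was near the floor in dorsal and intermediate pieces (2.15 and 2.26). Of 5 tested, 3 were called lower in dorsal than in ventral pieces. At each of the smaller steps, 2 were called lower on the dorsal side. Chat, Slc5a7 and Slc18a3, the cholinergic markers of that list, were at the floor on all 9 arrays, ventral ones included.

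Markers of cells other than neurons did not share the order of the dorsal horn neuron markers. Microglia markers, of which 9 of 12 were higher in dorsal than in intermediate and 0 higher and 1 lower in dorsal than in ventral pieces, summed to 12.40 to 12.66 in dorsal, 11.92 to 12.11 in intermediate and 12.75 to 12.86 in ventral pieces. The microglial sum was highest in the ventral pieces, although only Ctss of the 12 markers was called between dorsal and ventral pieces (-0.51 ± 0.05, adjusted p = 0.00154). Oligodendrocyte markers, 8 of 9 lower in dorsal than in ventral pieces, summed to 16.56 to 16.63, 16.56 to 16.72 and 17.03 to 17.09 in dorsal, intermediate and ventral pieces. Astrocyte markers, 8 of 8 lower, summed to 16.11 to 16.27, 16.39 to 16.45 and 16.93 to 16.95 in the same order. Endothelial markers, 7 of 10 lower, summed to 11.02 to 11.22, 11.22 to 11.28 and 11.91 to 12.01.
Meningeal markers (0 higher and 2 lower of 9 in dorsal against ventral pieces) summed to 13.59 to 14.72 in dorsal, 11.40 to 11.79 in intermediate and 14.00 to 14.42 in ventral pieces. Schwann cell and sensory ganglion markers (0 higher and 1 lower of 4) summed to 12.11 to 14.10, 8.45 to 9.45 and 12.77 to 13.32. Of this list, Scn10a, Trpv1 and Avil were at the floor on all 9 arrays. Its 1 lower call was Prph (2.15 in dorsal and 9.41 in ventral pieces), which is also in the motor neuron list. The sums of both lists were thus lowest in intermediate pieces. Of the member probe sets, Prkca 1450945_at also had its lowest mean there (5.09, against 5.17 in dorsal and 5.24 in ventral pieces). It had no call in the full fit, and no called member probe set had that order. The part of these cell types in the differences of the kinase genes was not tested.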

How the data were processed

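Per the labels' protocols, the input of each of the 9 arrays was 500 ng total RNA, made into biotinylated cRNA. The deposited values, 1 per probe set and array, were read as log2 since they run from 2.15 to 16.27. Their scale is stated by no label, and the authors' summarisation and normalization were not given in the sources used here. Between 35.97% and 36.26% of values per array were at the floor, and array medians were 3.66 to 3.752. The number of arrays limits the precision.

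Probe sets were named by the platform annotation: 34945 had 1 symbol, 932 several and 9160 none. Those whose mean reached the 30th percentile (2.14606) were kept, 31526 in all. limma 3.58.1 (R 4.3.3) fitted region and animal to all 9 arrays with eBayes (4 residual and 0.631 prior degrees of freedom); tests are two-sided with Benjamini-Hochberg adjustment over all kept probe sets. The script was tested on simulated data. Figures used Python 3.11.15, pandas 2.3.3 and matplotlib 3.10.9. Titles name the animal of each array, which is the basis of the block; deviations of same-animal arrays from region means correlated at -0.0823 to 0.273 (mean 0.123, 9 pairs, across probe sets) and those of different animals at -0.212 to 0.205 (mean -0.0625, 18 pairs). All probe sets of the members are named. Of each pathway list, the up to 4 called genes with the largest dorsal to ventral difference are named, and for each member whose region means span at least 1, the 3 genes with the closest profile. Prkci, Pkn2, Prkcq against intermediate pieces and Scn2a's means were chosen after their values were seen. The members and lists were chosen with earlier results of these data known. Alternatives were the filter, the normalization, the block, ties, the eBayes trend, the brightest probe set per gene, the arrays in the fit, and leaving out each animal and each array.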

Additional observations from a re-analysis of the deposited data

How the results depend on the processing

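Over 22 alternatives, 12 of them leaving out an animal or an array, the 16 member differences called in the full fit kept their direction in all of 340 values and their call in 310. The 30 losses belong to Prkca 1437393_at, Prkcb 1460419_a_at and Prkcd 1422847_a_at. Among 20 differences that were not called, 6 of 383 values passed and 5 changed sign. These were Prkca 1450945_at, dorsal minus intermediate, at -5.08e-05 without dorsal array 2 (up to 0.13 with another array or animal left out); Prkcb 1443144_at, near the floor, at -0.064 (dorsal minus intermediate) and -0.040 (dorsal minus ventral) with arrays centred on their medians; and Prkch 1434248_at, intermediate minus ventral, at 0.036 without animal 1 and 0.022 without intermediate array 1 (down to -0.20 without animal 3).

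Counts of member probe sets called in either direction between dorsal and intermediate were 1 to 3 with an animal or array left out, between intermediate and ventral 5 to 7, between dorsal and ventral 6 to 7, and against the midpoint 1 to 5, against 3, 6, 7 and 4 in the full fit. With 1 probe set per gene, 3 genes were called between intermediate and ventral, 4 between dorsal and ventral and 2 against the midpoint, because fewer probe sets were tested. Without the replicate block (animal), Prkcd 1422847_a_at, dorsal minus ventral, was 0.67 with an adjusted p of 0.0685, and no other member call changed. Over all probe sets, 7113 differed between dorsal and intermediate, against 2320, 2735 and 1787 without animals 1, 2 and 3, 4615 without dorsal array 3, 4147 and 4351 without intermediate arrays 1 and 3, and 2486 with only these 2 regions. Between intermediate and ventral the count was 11597, against 6879, 7550 and 5932 without animals 1, 2 and 3, and between dorsal and ventral 13511, against 8583 without animal 3. Against the midpoint it was 8232, against 1865, 3866 and 1170 without animals 1, 2 and 3 and 3713 and 4726 without intermediate arrays 1 and 3. Fewer arrays leave fewer residual degrees of freedom.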
